A study of Mus musculus with 4 samples.

Results

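The RANKL, OPG and CSF1 axis was followed through the tibia of the P6 mouse by the 6 genes that carry it: Tnfsf11 (RANKL), Tnfrsf11a (RANK), Tnfrsf11b (osteoprotegerin, OPG), Csf1, Csf1r and Il34. They were chosen by name as the ligands, decoy and receptors that control osteoclasts, and all 6 were found among the 31053 gene rows of the count matrix. The single-cell library came from 2 tibiae of 1 male mouse, dissociated with dispase and collagenase, and the methods name no sort of the cells. The mouse carried Col10a1Cre; Rosa26-Tdtomato; Irx3 +/Δ; Irx5 +/-, an Irx3 and Irx5 heterozygote that the labels call a control; no wild-type or homozygous animal is analysed here. Col10a1Cre acts in hypertrophic chondrocytes (HCs), so that HCs and their descendants express tdTomato followed by the woodchuck element WPRE. The study counts a cell as HC-derived with WPRE above 14, a cut it set to match its own measured frequency of labelled HCs. Here the cut was applied to WPRE unique molecular identifiers (UMIs), and 89 of 105 HCs (84.8%) passed it. It was not set anew for the cells kept here.

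Osteoclasts are the bone-resorbing cells of the monocyte and macrophage lineage. CSF1 binds CSF1R on their precursors and keeps them alive and dividing, and RANKL binds RANK on the same cells and drives them to fuse and to resorb bone. OPG is a secreted decoy receptor that takes up RANKL, and IL34 is a second ligand of CSF1R. RANKL and OPG are made by cells of the skeletal and stromal lineages, and both respond to parathyroid hormone, whose receptor the study follows in HC descendants.

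The matrix was a single library with no replicate, so that no test between groups was possible and no p-value is given. Levels are UMIs of a gene per 1000000 UMIs (CPM), summed over the cells of a class, with an exact 95% Poisson interval that covers counting error only. Of 14181 barcodes, 8255 cells had at least 1600 genes and passed the limits on mitochondrial and ribosomal RNA, with a median of 13957 UMIs and 3301 genes. The axis was sparsely counted in these cells, with 6047 UMIs of Csf1r, 3628 of Csf1, 2141 of Tnfsf11, 1183 of Tnfrsf11b, 776 of Tnfrsf11a and 54 of Il34. Clusters were made without the 6 genes and named from marker lists, and each name stands for cells that were like that type. Clusters with no such name are called by their leading genes. The osteogenic and stromal cells numbered 1045 and the monocyte, macrophage and osteoclast cells 925, after 162 and 117 cells in sub-clusters led by markers of another cell type were set aside. A doublet caller marked 39.5% and 40.2% of the cells set aside and 0% of the cells in the sub-clusters kept.

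Tnfsf11 lies on chromosome 14 (GRCm38, 78277445-78308043, minus strand) and Csf1 on chromosome 3 (107741048-107760469, minus strand). Tnfrsf11b lies on chromosome 15 (54250619-54278484, minus strand) and Tnfrsf11a on chromosome 1 (105780718-105847981, plus strand). Il34 lies on chromosome 8 (110741829-110805924, minus strand), where the annotation has 2 genes on the opposite strand. The promoters of Tnfsf11 and Csf1 are shown because the 2 ligands rose and fell together across the classes below. Each is the 250 bases before the RefSeq start (GRCm38.p6, both on the minus strand), chr14:78308044-78308293 for Tnfsf11 and chr3:107760470-107760719 for Csf1. Capitals mark TATAA on either strand in Tnfsf11 and GGGCGG in Csf1.
Tnfsf11: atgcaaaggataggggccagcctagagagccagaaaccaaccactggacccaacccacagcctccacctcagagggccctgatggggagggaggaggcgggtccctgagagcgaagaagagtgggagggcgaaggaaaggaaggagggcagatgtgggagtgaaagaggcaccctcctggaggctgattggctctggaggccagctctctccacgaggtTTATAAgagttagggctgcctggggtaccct
Csf1: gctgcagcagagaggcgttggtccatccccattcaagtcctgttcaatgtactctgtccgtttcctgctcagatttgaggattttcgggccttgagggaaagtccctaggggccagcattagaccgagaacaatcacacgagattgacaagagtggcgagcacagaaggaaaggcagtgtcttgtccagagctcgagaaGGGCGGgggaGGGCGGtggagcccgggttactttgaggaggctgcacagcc
The letters TATAA, the core of a TATA box, stood 30 bases before the start of Tnfsf11, with a match on the reverse strand that overlaps it, and were not found in the Csf1 window. GGGCGG, the GC box bound by SP1, stood 51 and 41 bases before the start of Csf1 and was not found in the Tnfsf11 window. Of 32536 RefSeq promoters of this length, 22.7% held TATAA and 33.0% held GGGCGG on either strand. Neither window held ACCACA, the RUNX core, or TGANTCA, the AP-1 site. Of all promoters, 4543 held the first and 6.73% the second.

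The ligands and the receptors were in separate compartments. Osteogenic and stromal cells held 75.1% of all Tnfsf11 UMIs and 53.3% of all Csf1 UMIs in the cells kept. Monocyte, macrophage and osteoclast cells held 84.1% of the Tnfrsf11a UMIs and 74.3% of the Csf1r UMIs. Chondrogenic cells, which were 1953 of the 8255 cells, held 65.3% of the Tnfrsf11b UMIs. They were deep, with 46059740 of the 137250336 UMIs of all genes. Their Tnfrsf11b level was 16.8 CPM (15.6 to 18.0), against 12.5 CPM in osteogenic and stromal cells. Il34 was split over pericyte, chondrogenic and fibroblast cells.

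Between the pooled compartments the differences were large for 5 of the 6 genes. Tnfsf11 was at 107 CPM (95% interval 102 to 113) in osteogenic and stromal cells and at 1.78 CPM (1.10 to 2.72) in the myeloid cells, a 60.3-fold difference. Of the 21 myeloid UMIs, 13 came from 1 cell, and without it the myeloid level was 0.681 CPM. Csf1 was at 129 CPM (123 to 135) against 7.03 CPM (5.60 to 8.72), an 18.4-fold difference. Tnfrsf11b was at 12.5 CPM (10.8 to 14.4) against 0.763 CPM (0.349 to 1.45). In the other direction, Csf1r was at 380.5 CPM (369 to 392) in the myeloid cells and 1.80 CPM (1.19 to 2.62) in the osteogenic and stromal cells. Tnfrsf11a was at 55.3 CPM (51.2 to 59.7) in the myeloid cells, against 1 UMI in 1045 osteogenic and stromal cells. At 4-fold or more, 3 of the 5 members with enough UMIs were higher in the skeletal compartment, where 13.2% of the 11717 genes tested were, and the other 2 were higher in the myeloid compartment, where 8.68% were. The median of all genes differed by -0.06 on the log2 scale. Il34 had 4 and 2 UMIs in the compartments and was not compared.

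**Figure D1:**
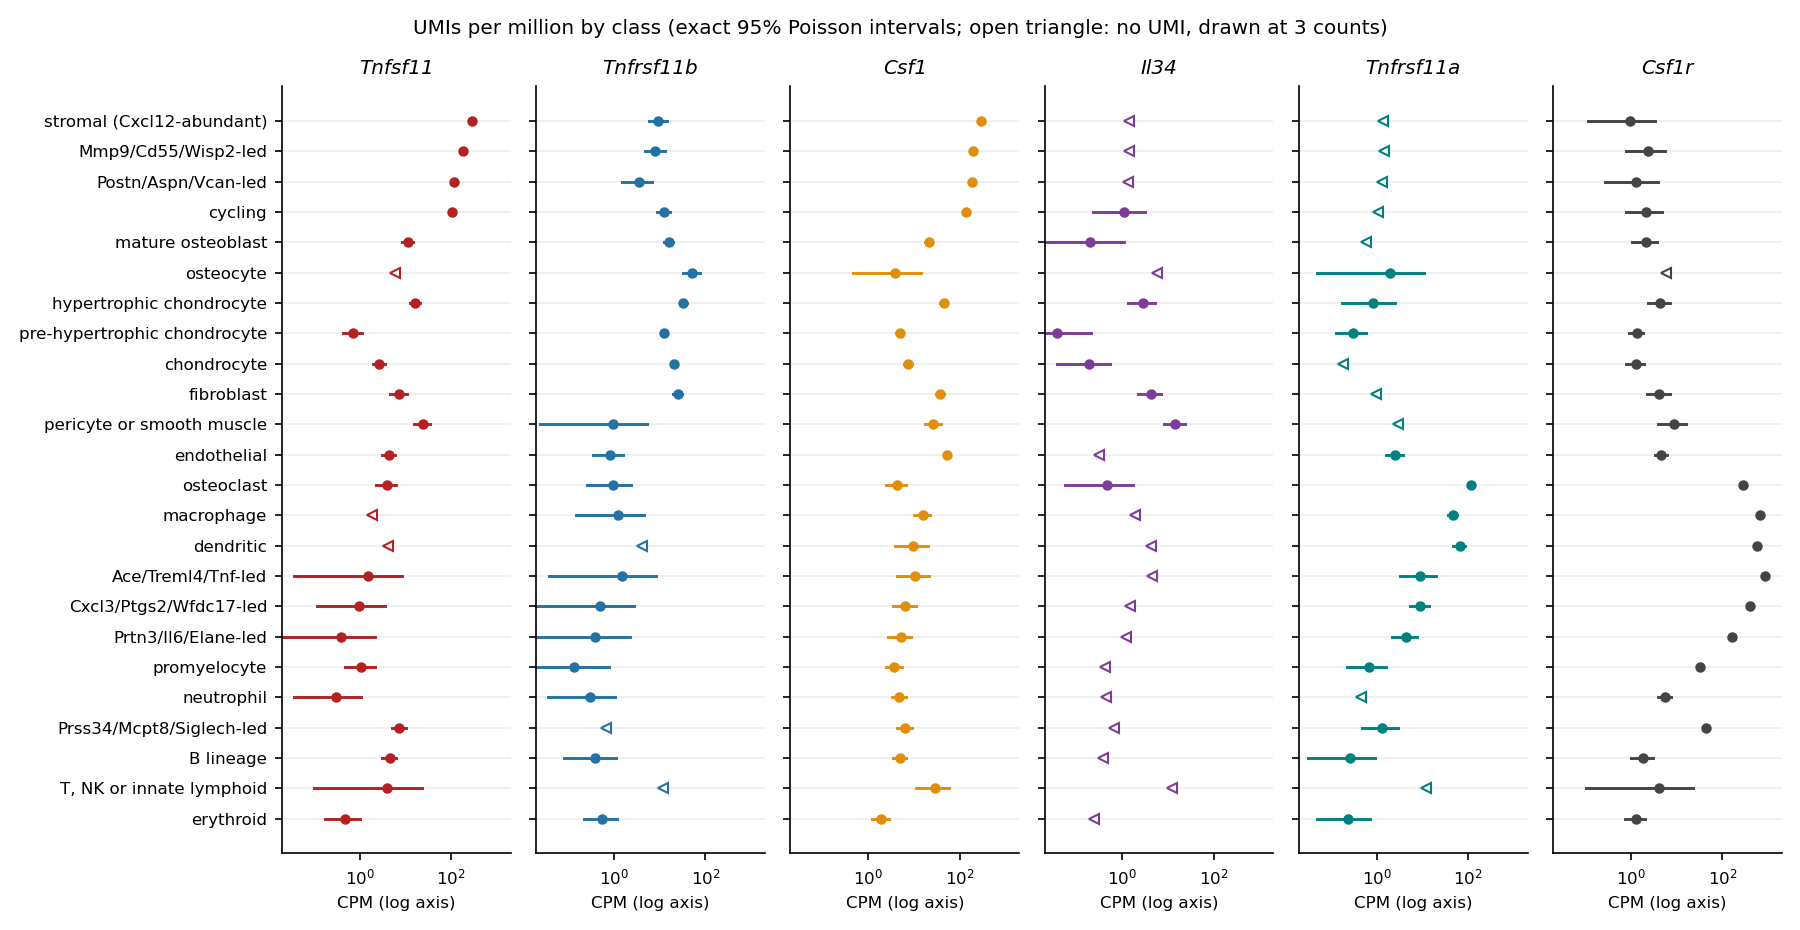
Level of each of the 6 genes by class, as CPM on a log axis, with exact 95% Poisson intervals; an open triangle marks a class with no UMI, drawn at the level that 3 counts would give. Tnfsf11 and Csf1 are high in the upper 4 rows, Tnfrsf11a and Csf1r in the myeloid rows, and Tnfrsf11b is spread over osteocyte, chondrocyte and fibroblast rows.

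Cxcl12-abundant stromal cells were the strongest senders of both ligands. These 206 cells expressed Cxcl12, Lepr, Adipoq, Lpl and Kitl, the genes of the marrow reticular cells that support blood formation. Tnfsf11 was at 292 CPM (269.9 to 316) in them, the highest of 22 classes of at least 50 cells, and its interval did not overlap that of any other class. Csf1 was at 286 CPM (264 to 309), again the highest and again with no overlap. Thinned to 5000 UMIs a cell, 142 of 199 stromal cells (71.4%) held a Tnfsf11 UMI and 141 (70.9%) a Csf1 UMI, where 83.0% and 81.1% of all 206 did before thinning. In erythroid cells, which should lack both transcripts, the thinned shares were 0.152% and 0.761%, at a median depth of 14090.5 UMIs against 9588 in stromal cells. In B lineage cells the thinned shares were higher, 1.87% for Tnfsf11 and 2.21% for Csf1.

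Behind the stromal cells came 3 groups of the osteogenic pool. The 158 cells led by Mmp9, Cd55 and Wisp2, which also express the collagenase gene Mmp13, had Tnfsf11 at 178 CPM (161 to 197) and Csf1 at 195 CPM (177 to 215). A single cell there held 38 Tnfsf11 and 33 Csf1 UMIs, and without it the levels were 162 and 182 CPM. The 229 cells led by Postn, Aspn and Vcan, matrix genes of the periosteum and other fibrous layers, had Tnfsf11 at 114 CPM (100.4 to 129) and Csf1 at 189.5 CPM (172 to 208). Their 10 leading genes also included Wif1, a gene of the immature osteoblast marker list, at 1219 CPM against 55.0 CPM in all other cells. Cycling osteogenic cells, 153 in number, had Tnfsf11 at 106 CPM (93.9 to 119) and Csf1 at 134 CPM (121 to 149). The intervals of the last 2 groups overlapped for Tnfsf11, and those of the first 2 for Csf1. These 3 groups and the stromal cells stood above every other class for both genes. Markers of other cells were also present: 10 macrophage genes summed to between 50.5 and 102 CPM in the 4 groups, against 12564 CPM in macrophages, and 13 erythroid genes to between 636 and 5404 CPM, highest in the Postn-led cells, against 174643 CPM in erythroid cells. For the osteoclast list, 9 genes summed to between 567 and 794 CPM, against 6443 CPM in osteoclasts. The 14 B lineage genes summed to between 302 and 741 CPM, against 10336 CPM in that lineage. The part of these markers in the values was not tested.

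Mature osteoblasts sent little of either. The 269 cells rich in Bglap (osteocalcin) and Ifitm5 had Tnfsf11 at 11.3 CPM (8.63 to 14.6) and Csf1 at 21.0 CPM (17.2 to 25.3). After thinning, 4.46% of them held a Tnfsf11 UMI and 10.8% a Csf1 UMI, though their median depth of 17929 UMIs was the highest of the osteogenic groups. Stromal cells were 25.8-fold above them for Tnfsf11 and 13.6-fold for Csf1. The 540 cells of the 3 groups above, pooled, were 11.4-fold above them for Tnfsf11 (log2 ratio 3.51, 3.13 to 3.92) and 8.11-fold for Csf1 (3.02, 2.74 to 3.32). Both passed a 4-fold rise there, as 5.70% of the 9773 genes tested did, and neither fell 4-fold, as 0.798% did. The median gene was itself higher in the 3 pooled groups by 0.49 and in the stromal cells by 0.56 on the log2 scale.

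Osteocytes are the cells buried in bone matrix, and those caught here gave no Tnfsf11 UMI at all. The 30 cells expressed Dmp1, Phex and Sost, and with 511983 UMIs in all, 3 counts would be 5.86 CPM. Their Csf1 was 2 UMIs, 3.91 CPM (0.473 to 14.1). The 3-count level lies below the Tnfsf11 interval of the mature osteoblasts, though 30 cells are few and a single cell can hold over 10 UMIs of such a gene. The paper could not exclude that deeply embedded cells are released less easily than superficial ones. Whether these 30 cells stand for osteocytes deep in the matrix was not tested.

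Against the other 839 osteogenic cells together, stromal cells had 3.82-fold more Tnfsf11 (log2 ratio 1.93, 1.79 to 2.08) and 2.77-fold more Csf1 (1.47, 1.33 to 1.61). The 2 ligands were the only ones of the 3 members tested to pass a 2-fold rise, as 10.0% of 10314 genes did. Tnfrsf11b went the other way by -0.47, with an interval of -1.22 to 0.20 that includes no difference, and 5.22% of genes were lower by 2-fold. All genes had a median log2 ratio of 0.28 in this comparison. With at most 5% mitochondrial UMIs the log2 ratios were 2.31 and 2.13, and with cells of 500 or more genes 1.52 and 1.01. The classes differed in these settings, with 83 stromal and 322 other osteogenic cells in the first and 73 and 1071 in the second. The 839 cells include the mature osteoblasts, which were low in both ligands. Against only the 540 Mmp9-led, Postn-led and cycling cells, stromal cells had 2.26-fold more Tnfsf11 (1.17, 1.02 to 1.32). Csf1 was 1.68-fold higher there (0.75, 0.61 to 0.89), below the 2-fold mark.

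**Figure D2:**
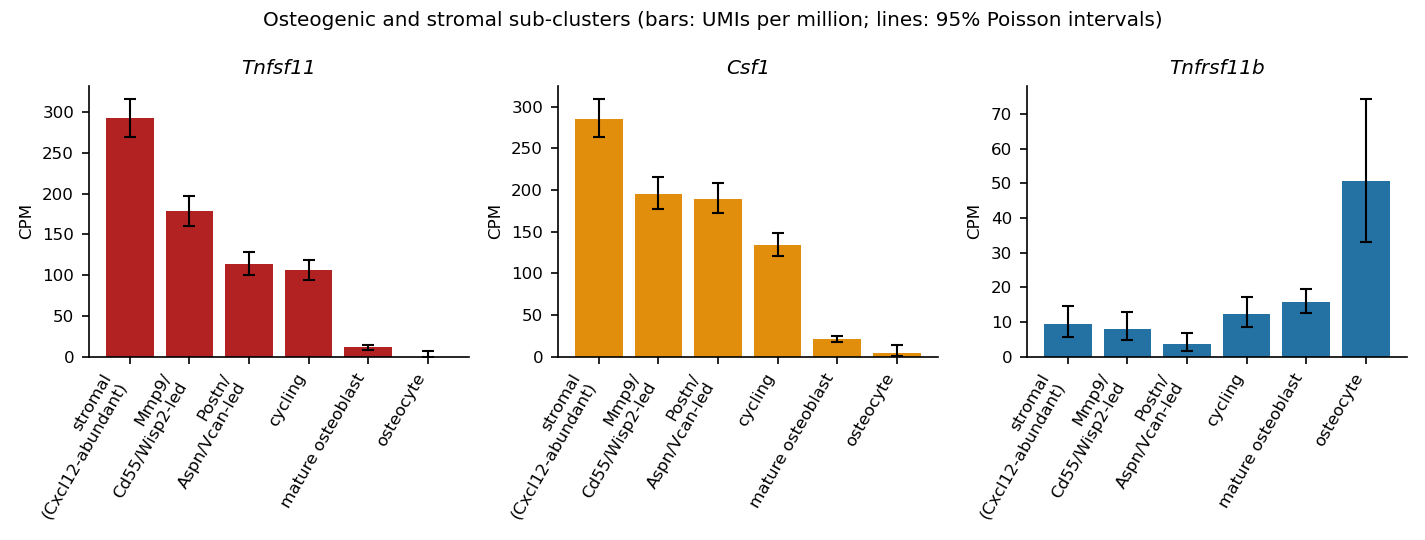
Tnfsf11, Csf1 and Tnfrsf11b in the 6 osteogenic and stromal groups; bars are CPM on axes that start at 0 and differ between genes, and lines are exact 95% Poisson intervals. Tnfsf11 and Csf1 drop from 292 and 286 CPM in stromal cells to 11.3 and 21.0 CPM in mature osteoblasts, while Tnfrsf11b is highest in osteocytes at 50.8 CPM.

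Csf1 was compared within each group between cells with and without a Tnfsf11 UMI. Among thinned stromal cells, Csf1 was found in 71.1% of the cells with Tnfsf11 and in 70.2% of those without. In the Mmp9-led group the shares were 59.0% and 54.8%, and in the Postn-led group 61.5% and 53.1%, with overlapping intervals. Cycling cells had the widest gap, with 64.7% (50.1 to 77.6) against 40% (30.3 to 50.3), whose intervals meet at their ends. The differences were not tested. Across 22 classes, which share 1 library, the levels of Tnfsf11 and Csf1 had a Pearson r of 0.93 on log2(CPM + 10).

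Outside the osteogenic cells Tnfsf11 was low. Pericytes and smooth muscle cells, 100 in number, had 23.9 CPM (15.5 to 35.3) from 25 UMIs in 13 cells. In these 100 cells 13 erythroid genes summed to 24448 CPM, and 8 cells had more than 14 WPRE UMIs. The 12 genes of the stromal list summed to 1658 CPM, against 14533 CPM in stromal cells. The part of these markers in the pericyte value was not tested. HCs had 16.4 CPM (12.5 to 21.3), from 58 UMIs in 16 of 105 cells, the intervals of the 2 types overlapping. Those 16 HCs had Col10a1, the collagen of the hypertrophic zone, at 4667 CPM and Ibsp, a bone matrix gene, at 8189 CPM, where the 89 HCs without Tnfsf11 had 12104 and 3589 CPM. Csf1 followed, at 158 CPM in the 16 cells and 30.8 CPM in the 89. With 3000 variable genes in the clustering, the HC level of Tnfsf11 was 4.13 CPM; with at most 5% mitochondrial UMIs it was 3.11 CPM.

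Lymphoid and myeloid cells, which can make RANKL when activated, held few Tnfsf11 UMIs. The B lineage had 4.52 CPM (3.15 to 6.29), in which its Vpreb1-led precursors had 6.25 CPM (4.19 to 8.98). A cluster of 302 cells led by Prss34, Mcpt8 and Siglech, which mixes basophil and plasmacytoid dendritic genes, had 7.27 CPM (5.00 to 10.2). Osteoclasts had 17 UMIs, of which 13 came from 1 cell, and 0.950 CPM without it. T, NK and innate lymphoid cells were only 30, with 1 UMI. The erythroid level, taken as background, was 0.481 CPM (0.176 to 1.05).

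Csf1 had a wider reach than Tnfsf11. The 815 endothelial cells had 52.6 CPM (48.1 to 57.3) and held 14.3% of all Csf1 UMIs, with a Csf1 UMI in 251 cells, while their Tnfsf11 was 4.37 CPM, 15 of 43 UMIs from 1 cell. HCs had Csf1 at 44.5 CPM (37.8 to 52.1), fibroblasts at 37.3 CPM (30.8 to 44.7) and pericytes at 26.8 CPM (17.8 to 38.7). These intervals overlapped from one neighbour to the next. Macrophages, at 15.6 CPM (10.1 to 23.0), led the myeloid classes, and osteoclasts were at 4.23 CPM (2.51 to 6.68). Erythroid cells were lowest at 1.92 CPM (1.23 to 2.86).

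Il34, the other ligand of CSF1R, was close to undetected, with 54 UMIs in 44 of 8255 cells. Pericytes and smooth muscle cells had the highest level, 14.3 CPM (8.03 to 23.7), from 15 UMIs in 12 cells. Fibroblasts followed with 4.18 CPM (2.23 to 7.15), then HCs with 2.84 CPM (1.36 to 5.22). Of the 13 fibroblast UMIs, 11 were in the tendon-like cells led by Mfap5 and Tnmd. Stromal cells, which sent the most Csf1, had no Il34 UMI, where 3 counts would be 1.41 CPM.

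Tnfrsf11b, the decoy, had a different map. Among classes of at least 50 cells HCs were highest at 33.2 CPM (27.4 to 39.8), then fibroblasts at 25.1 CPM (19.8 to 31.3), chondrocytes at 20.6 CPM (18.5 to 22.9) and mature osteoblasts at 15.8 CPM (12.5 to 19.6). Each of these intervals overlapped its neighbour. The order depended on the cells kept: with at most 5% mitochondrial UMIs fibroblasts were at 34.6 CPM and HCs at 23.1 CPM, and with cells of 500 or more genes, where no cluster took the HC name, chondrocytes were at 25.0 CPM and fibroblasts at 23.4 CPM. Pre-hypertrophic chondrocytes were at 12.2 CPM (10.9 to 13.6), stromal cells at 9.37 CPM (5.72 to 14.5), and the Postn-led cells at 3.50 CPM (1.51 to 6.90). Endothelial, myeloid and erythroid classes were between 0 and 1.49 CPM.

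Clusters within a type also differed. In the 125 chondrocytes led by Penk, Tnni2 and Sfrp5 Tnfrsf11b was at 58.2 CPM (46.2 to 72.5), against 18.0 CPM (15.5 to 20.8) in the 592 led by Ucma and 15.1 CPM (11.8 to 19.2) in the 155 led by Prelp. Tendon-like fibroblasts led by Mfap5 and Tnmd were at 39.2 CPM (30.8 to 49.1), where the fibroblasts led by Aspn and Postn had 3 UMIs, 2.51 CPM (0.517 to 7.33). The 30 osteocytes were at 50.8 CPM (33.2 to 74.4), 3.22-fold above mature osteoblasts. Of the 26 osteocyte UMIs, 14 came from 1 cell, and without it the level was 24.1 CPM.

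The balance of ligand to decoy differed between the osteogenic groups. In stromal cells 96.9% (95.2 to 98.1) of the Tnfsf11 and Tnfrsf11b UMIs together were Tnfsf11, and in the Postn-led and Mmp9-led cells 97.0% and 95.7%. Cycling cells had 89.5% (85.7 to 92.6). Mature osteoblasts had 41.8% (33.6 to 50.4), and 17 of their 82 Tnfrsf11b UMIs came from 1 cell. HCs had 33.1% (26.2 to 40.6), fibroblasts 22.8%, chondrocytes 11.6% (8.56 to 15.3) and pre-hypertrophic chondrocytes 5.59%. Osteocytes had 0 of 26 UMIs as Tnfsf11. The share depends on how well each transcript is captured at its 3′ end, so it can be set side by side between classes but is not a molar ratio.

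**Figure D3:**
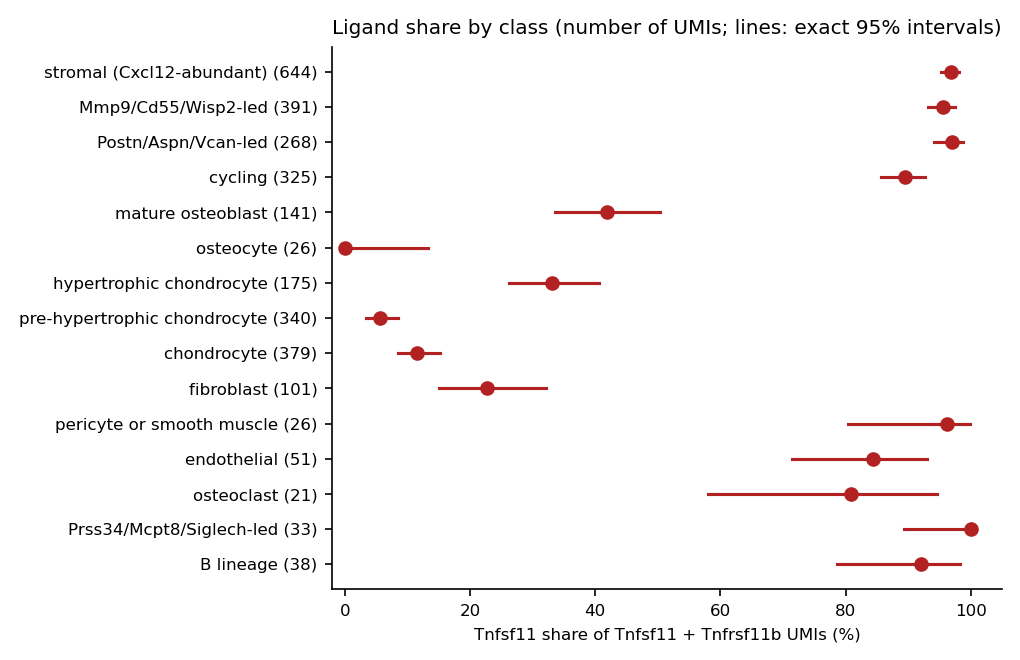
Share of Tnfsf11 among the Tnfsf11 and Tnfrsf11b UMIs of each class with at least 20 such UMIs, with exact 95% intervals and the number of UMIs in brackets. Stromal cells and the Mmp9-led, Postn-led and cycling groups lie between 89.5% and 97.0%, mature osteoblasts at 41.8%, and cartilage classes below 34%.

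Among the receivers the 2 receptors were ordered differently. Tnfrsf11a was highest in osteoclasts, at 117 CPM (107 to 127). These 175 cells expressed Acp5 (TRAP), Ctsk and Atp6v0d2, the enzymes and proton pump of resorption, and they held 64.0% of all Tnfrsf11a UMIs in the cells kept. MHC class II-high dendritic-like cells, 77 in number, had 64.8 CPM (47.6 to 86.2) and macrophages 46.1 CPM (36.2 to 57.8), with overlapping intervals. The other groups of the pool and the promyelocytes were between 0.687 CPM, in promyelocytes, and 8.96 CPM, and neutrophils had no Tnfrsf11a UMI in 548 cells.

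Csf1r was lower in osteoclasts than in macrophages and dendritic-like cells. The gene lies on chromosome 18 (GRCm38, 61100598-61132149, plus strand), where Hmgxb3 overlaps it on the opposite strand. It was highest in the 116 cells led by Ace, Treml4 and Tnf, at 838 CPM (769.9 to 910.1), a group with genes of non-classical monocytes. Macrophages had 666 CPM (627 to 707), dendritic-like cells 581 CPM (526 to 639) and the 278 cells led by Cxcl3, Ptgs2 and Wfdc17 406 CPM (378 to 434). Osteoclasts had 285 CPM (269 to 301), and the 169 cells led by Prtn3, Il6 and Elane 160.2 CPM (145 to 177). Promyelocytes, granulocyte precursors, had 31.9 CPM (27.9 to 36.3), or 4.98 CPM (2.90 to 7.97) with at most 5% mitochondrial UMIs, and neutrophils 5.56 CPM (3.92 to 7.67). Osteoclasts thus had 2.53-fold more Tnfrsf11a than macrophages (log2 ratio 1.34, 0.99 to 1.71) and 2.34-fold less Csf1r (-1.23, -1.35 to -1.11).

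Thinned cells gave the same order for Tnfrsf11a, but the intervals of osteoclasts and dendritic-like cells overlapped. A Tnfrsf11a UMI was found in 38.5% (31.2 to 46.2) of osteoclasts, 25.7% (16.2 to 37.2) of dendritic-like cells and 20.2% (13.1 to 28.9) of macrophages. A Csf1r UMI was found in 72.4%, 94.6% and 94.5%. Before thinning 88.6% of osteoclasts held Tnfrsf11a and 98.3% Csf1r, at a median of 23599 UMIs. In thinned erythroid cells Csf1r was found in 0.609% of cells and Tnfrsf11a in none of 657, where 3 counts would be 0.457%. Endothelial cells had a low Tnfrsf11a level of 2.54 CPM (1.64 to 3.75) in 22 of 815 cells, above the erythroid 0.240 CPM (0.0496 to 0.702). Under the other settings this endothelial level ranged from 0 to 2.83 CPM. Of the 815 cells, 58 were called doublets, and their part in the value was not tested. With at most 5% mitochondrial UMIs, 54 osteoclasts were left, with Tnfrsf11a at 90.0 CPM and Csf1r at 243 CPM.

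**Figure D4:**
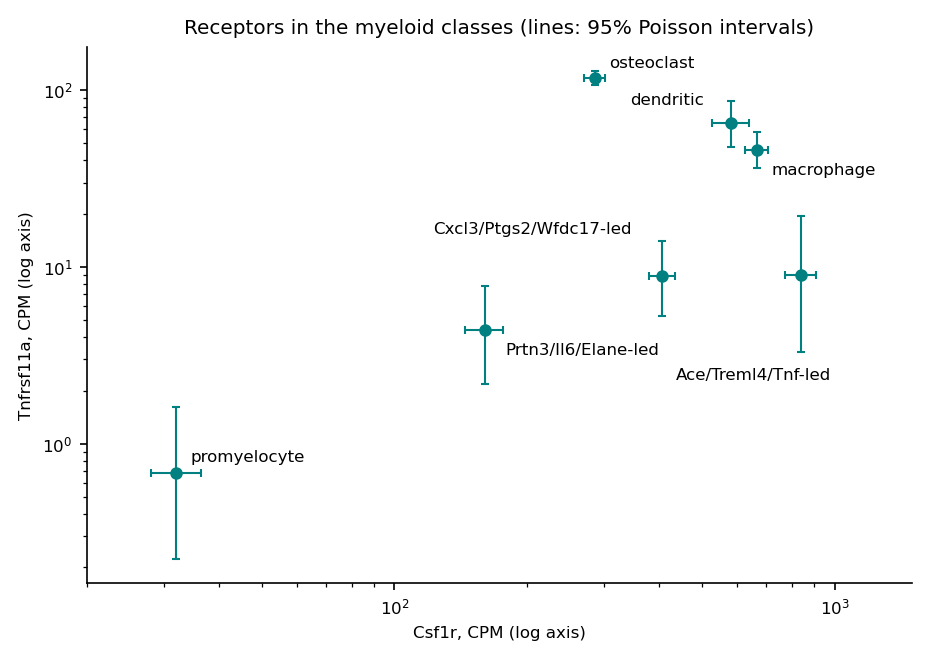
Tnfrsf11a against Csf1r in the 7 myeloid classes, both as CPM on log axes, with exact 95% Poisson intervals. Osteoclasts have the highest Tnfrsf11a at 117 CPM with Csf1r at 285 CPM, and the Ace, Treml4 and Tnf-led cells have the highest Csf1r at 838 CPM with Tnfrsf11a at 8.96 CPM.

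The study asks how HC descendants contribute to bone, and the ligands were therefore compared between HC-derived and other osteogenic cells. Of the 1045 cells, 257 were HC-derived, in unequal shares: 82 of 158 Mmp9-led cells, 89 of 269 mature osteoblasts, 46 of 153 cycling cells, 10 of 30 osteocytes, 28 of 206 stromal cells and 2 of 229 Postn-led cells. Cells at 14 or fewer WPRE UMIs can still include descendants in which the label was not caught, and HC-derived cells were deeper, with a median of 14980 UMIs against 11790. Tnfsf11 was at 111 CPM in HC-derived and 106 CPM in other cells, a log2 ratio of 0.07 (-0.08 to 0.23). Csf1 was lower in HC-derived cells, 105 against 139 CPM (-0.40, -0.56 to -0.25). Tnfrsf11b was higher, 21.3 against 8.75 CPM (1.28, 0.85 to 1.71). It was the member that passed a 2-fold rise, as 0.766% of 10314 genes did.

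These values changed under other settings. With the other cells weighted to the class composition of the HC-derived cells, the log2 ratios were 0.42 for Tnfsf11, -0.01 for Csf1 and 0.96 for Tnfrsf11b. With the label called from at least 1 tdTomato UMI, which left 103 HC-derived cells, they were -0.18 (-0.39 to 0.02) for Csf1 and 0.19 (-0.45 to 0.77) for Tnfrsf11b, with intervals that include 0. At most 5% mitochondrial UMIs left 104 HC-derived cells and gave -0.56 for Tnfsf11, -0.82 for Csf1 and 0.81 for Tnfrsf11b. That limit left out 22 of the 28 HC-derived stromal cells and 66 of the 82 in the Mmp9-led group, but 31 of the 89 HC-derived mature osteoblasts. Of the other cells in these groups it left out 116 of 178, 43 of 76 and 82 of 180. Of all 257 HC-derived cells 59.9% were above the limit, and of the 788 others 63.1%.

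Within groups, HC-derived stromal cells had more Tnfsf11, 454 CPM (383 to 534) in 28 cells against 264 CPM (241 to 289) in 178, a log2 ratio of 0.78 (0.50 to 1.05). The value without the top cell of each side was 0.82, and Csf1 differed by 0.10 (-0.23 to 0.41). HC-derived stromal cells also had more Adipoq, 605 against 210.3 CPM, and more Lepr, 507 against 297 CPM, and the part of these markers in the difference was not tested. In the Mmp9-led group Tnfsf11 was at 211 against 140.03 CPM (0.59, 0.28 to 0.91), or 0.49 without the top cells, and Csf1 at 216 against 172 CPM (0.33, 0.04 to 0.62), or 0.22 (-0.09 to 0.53) without them. In cycling cells Csf1 was lower, 101 against 152 CPM (-0.59, -0.94 to -0.25), and Tnfsf11 differed by -0.10 (-0.47 to 0.26).

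The Tnfrsf11b difference was found in mature osteoblasts, 26.2 CPM in 89 HC-derived cells against 10.1 CPM in 180 others (1.38, 0.72 to 2.06). Without the top cell of each side, which held 17 and 10 UMIs, it was 1.25. Bglap was at 3216 CPM in the HC-derived cells and 17854 CPM in the others, and Dmp1 at 119 and 284 CPM. Ibsp was at 9887 and 5413 CPM, and the part of these markers in the difference was not tested. Mature osteoblasts split into 3 states, made after the values were seen. In the 104 cells led by Ptgs2, Mmp13 and Sgk1, of which 69 were HC-derived, Tnfrsf11b was at 31.8 CPM in HC-derived and 29.96 CPM in other cells. The 106 cells led by Bglap3, of which 10 were HC-derived, had 5.63 and 5.74 CPM, and the 59 led by C2cd4b, also with 10, had 8.38 and 5.83 CPM. These rest on 45 and 18 UMIs in the first state, 1 and 10 in the second, and 2 and 6 in the third, too few in the last 2 to compare the sides. HC-derived cells made up 66.3% of the first state, 9.43% of the second and 16.9% of the third, and the part of these shares in the difference was not tested. Tnfsf11 in the first state was at 10.6 CPM in HC-derived and 33.3 CPM in other cells, on 15 and 20 UMIs. Osteocytes gave 17 Tnfrsf11b UMIs in 10 HC-derived cells and 9 in 20 others, of which 14 and 4 were in 1 cell each. The Tnfrsf11b ratio was -0.65 in stromal, -0.38 in Mmp9-led and 0.90 in cycling cells, with intervals that include 0. Among HCs, the 89 cells with more than 14 WPRE UMIs had 36.0 CPM and the 16 others 6.07 CPM (2.57, 0.68 to 5.63), on 115 and 2 UMIs. The cause of this gap was not tested.

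**Figure D5:**
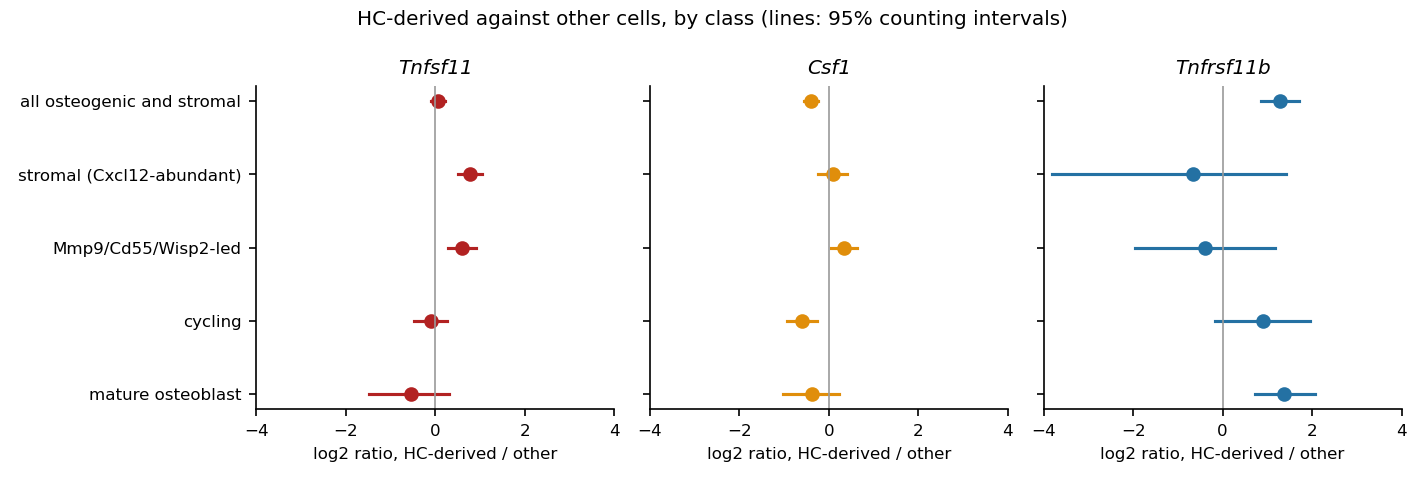
Log2 ratio of CPM in HC-derived over other cells, for all osteogenic and stromal cells and for the 4 groups with at least 28 HC-derived cells, with 95% counting intervals; the grey line marks no difference. Tnfsf11 lies above 0 in the stromal (0.78) and Mmp9-led (0.59) groups, and Tnfrsf11b above 0 in mature osteoblasts (1.38) and in all cells (1.28).

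The genes most like each member were sought among 10054 genes by Pearson r of log2(CPM + 10) over the same 22 classes. For Tnfsf11 they were Podnl1 (0.98), Pappa (0.96), Mme (0.95), Esr1 (0.95) and Cldn10 (0.94), of which Pappa is a protease of IGF-binding proteins, Mme a membrane peptidase and Esr1 the estrogen receptor. All but Podnl1 were highest in the stromal cells. Csf1 had Nradd (0.96), Podnl1 (0.95), Pou6f1 (0.95), Limch1 (0.94) and Dlg5 (0.94). Tnfrsf11b had Rbp4 (0.96), Sec22b (0.92), Tmem45a (0.92), Dnajc25 (0.91) and Chpf (0.91), which were highest in HCs or pre-hypertrophic chondrocytes. Rbp4 carries retinol, and Sec22b acts in transport from the endoplasmic reticulum.

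Among the receptors, Tnfrsf11a was most like Slc37a2 (0.97), Gpnmb (0.96), Mfsd12 (0.94), Stxbp3 (0.94) and Wdr91 (0.94), and Slc37a2 and Gpnmb are abundant in osteoclasts and macrophages. Csf1r was most like Bcl2a1a (0.99), Pik3r5 (0.98), Lrrc25 (0.98), Ifi207 (0.98) and Ctss (0.97), leukocyte genes that include the lysosomal protease cathepsin S. The receptors had an r of 0.79 with each other. For Il34, which rests on 54 UMIs, the genes were Parm1 (0.96), Ppp1r14a (0.95), Ntrk2 (0.94), Dmd (0.93) and Slc6a17 (0.92), all highest in pericytes and smooth muscle cells.

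Other genes of the pathway were taken from 8 lists of 76 genes and compared between the pooled skeletal and myeloid cells, where 13.2% of all genes tested were at least 4-fold higher in skeletal cells and 8.68% in myeloid cells. None of the 4 tested genes that release the ligands from the membrane passed 4-fold. Mmp14, a membrane protease that can shed RANKL, was highest in the Mmp9-led cells at 865 CPM, with 597 CPM in stromal cells and 175 CPM in mature osteoblasts. Adam17 was 2.37-fold higher in the myeloid cells. The median log2 ratio of the list was 0.70, where that of all genes was -0.06.

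Of 13 tested regulators of Tnfsf11 and Tnfrsf11b, 7 were at least 4-fold higher in skeletal cells and 1 in myeloid cells, with a median of 3.31. Over all classes, 9 of the 14 genes of this list were highest outside the osteogenic, chondrogenic and myeloid pools, and 3 in an osteogenic or stromal group. Pth1r, the parathyroid hormone receptor, was at 307 CPM against 11.6 CPM. It was lower in stromal cells (173 CPM) than in mature osteoblasts (395 CPM), the reverse of Tnfsf11 in these 2 groups. Its levels in the other osteogenic groups are not given here. Lifr was at 295 against 10.3 CPM, Vdr, the vitamin D receptor, at 97.8 against 8.98 CPM, and Osmr, the oncostatin M receptor, at 34.4 against 2.54 CPM. Lifr was 399 CPM in stromal cells and 205 CPM in mature osteoblasts. Ptger2, a prostaglandin E2 receptor, was the gene higher in myeloid cells, at 11.2 against 0.534 CPM.

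In a list of other receptors and ligands, 2 of 7 tested genes passed 4-fold in skeletal cells and 3 in myeloid cells, with a median of 0.38. Ptprz1, a second receptor of IL34, was at 47.0 against 0.508 CPM, and Lgr4, another receptor of RANKL, at 43.9 against 5.08 CPM. The inflammatory ligands Tnf, Il1a and Csf3 were at 299, 124 and 67.4 CPM in the myeloid cells and below 1 CPM in the skeletal cells. Tnf was highest in the Ace, Treml4 and Tnf-led cells at 2170 CPM, a group that its own level helped to define.

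RANK signalling had 5 of 16 genes at least 4-fold higher in myeloid cells and none in skeletal cells, with a median of -1.30. Those 5 were Nfkb2 and Relb of the non-canonical NF-κB arm, the factors Mitf and Prdm1, and the adaptor Gab2. Prdm1, which represses inhibitors of osteoclast formation, was at 55.2 CPM against 0.934 CPM, and Nfkb2 at 79.4 against 11.1 CPM. Nfatc1, the main factor of osteoclast formation, was 2.69-fold higher in myeloid cells and was highest in osteoclasts, at 269 CPM against 23.7 CPM in macrophages. Genes other than the 6 members, Pth1r and the Mmp genes could enter the clustering, so their levels between clusters are a description.

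Costimulation by ITAM adaptors had all 6 tested genes at least 4-fold higher in myeloid cells, with a median of -6.08. Tyrobp (DAP12) was at 2059 against 4.20 CPM and Fcer1g at 1659.9 against 25.1 CPM, and both were higher in macrophages (1902 and 2376 CPM) than in osteoclasts (1544 and 879 CPM). Syk was at 181 against 1.54 CPM and Trem2 at 161 against 0.133 CPM. CSF1 receptor signalling had 4 of 10, with a median of -1.79. Among them, Spi1 (PU.1) was at 471 against 1.07 CPM, Ptpn6 at 102 against 1.20 CPM and Inpp5d at 70.8 against 1.20 CPM.

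The brakes on osteoclast formation Irf8, Id2 and Tnfaip3 were lower in osteoclasts than in macrophages, and the fusion genes Dcstamp and Ocstamp higher. Of 8 brakes, 4 were at least 4-fold higher in myeloid cells, with a median of -1.99. Irf8 was at 387 CPM in macrophages and 18.6 CPM in osteoclasts, Id2 at 1172 and 261 CPM, and Tnfaip3 at 239.7 and 144 CPM. Cyld, another brake, was at 33.0 CPM in macrophages and 36.9 CPM in osteoclasts. Of 5 fusion genes, 3 were at least 4-fold higher in myeloid cells, with a median of -4.49. Dcstamp was at 60.8 CPM in osteoclasts and 1.25 CPM in macrophages, and Ocstamp at 56.1 and 2.49 CPM. Sirpa ran the other way, at 232 CPM in osteoclasts and 924 CPM in macrophages.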

How the data were processed

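Cells of 2 tibiae of 1 P6 mouse were run as 1 10x library, sequenced in 4 entries. The authors aligned reads to mm10 with the tdTomato and WPRE sequences in Cell Ranger 3.1.0 and deposited UMI counts per gene and barcode, not normalized. No source used here names the annotation release. Barcodes were kept from 1600 genes upward, with mitochondrial UMIs up to 10% and ribosomal UMIs up to 50%. They were clustered in scanpy 1.11.5 on 2000 variable genes, with the 6 members, Pth1r and the Mmp genes left out. The settings were 30 components, 20 neighbours and resolution 1, and 0.6 within the osteogenic and myeloid clusters. Clusters were named from 25 marker lists, by a rule settled after the clusters were seen. Scrublet doublets were kept in. UMIs were summed per class, per 1000000. Genes compared between 2 groups had at least 50 UMIs in them. Shares used cells thinned to 5000 UMIs and exact binomial 95% intervals. Genes other than the 6 were named by fixed rules: the 5 genes most like each member, and the lists by their counts and leading genes at 4-fold or more, with a few others of those lists named after their values were seen. The members and lists were chosen with earlier results of these data known. Some genes of the lists are counted but not reported here by name.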

Additional observations from a re-analysis of the deposited data

How the results depend on the processing

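The 12 main results were recomputed under 12 alternative settings, of which 3, and the thinned levels, were chosen after seeing the data, as far as each applied, and 91 of 126 values lay within the counting interval of the value reported (or kept the top class, among classes with a cell type name, of at least 4 of the 6 genes). No difference whose interval left out 0 turned its direction. The HC-derived Tnfsf11 ratio, reported as 0.07 with an interval that includes 0, did change sign, as given below. Groups called by their leading genes, and the cycling cells, were left out of the recomputed class levels. The rank of stromal cells above the Mmp9-led, Postn-led and cycling groups for Tnfsf11 and Csf1 was therefore not recomputed. Nor was the rank of the Ace, Treml4 and Tnf-led cells for Csf1r. At most 5% mitochondrial UMIs gave, in osteogenic and stromal cells, 81.2 CPM for Tnfsf11, 16.1 for Tnfrsf11b and 88.8 for Csf1, Tnfrsf11a at 32.9 in the myeloid cells, stromal log2 ratios of 2.31 and 2.13, HC-derived ratios of -0.56, 0.81 and -0.82 for Tnfsf11, Tnfrsf11b and Csf1, and 3 of 6 genes with the same top class. The mean over cells gave 134 CPM for Tnfsf11, 10.4 for Tnfrsf11b, 157 for Csf1, 457 for Csf1r and 37.1 for Tnfrsf11a, and stromal ratios of 1.66 and 1.10. Thinning gave 126, 9.75, 168, 435 and 37.3 CPM in that order, a stromal Csf1 ratio of 1.12 and an HC-derived Tnfsf11 ratio of 0.27. With 500 genes the stromal ratios were 1.52 and 1.01. At resolution 1.5 Csf1r was at 344 CPM. The tdTomato label gave HC-derived ratios of 0.19 for Tnfrsf11b and -0.18 for Csf1. The mixed sub-clusters gave 95.9 CPM for Tnfsf11, 119 for Csf1, 363 for Csf1r and 50.4 for Tnfrsf11a. Equal composition gave 0.42 for Tnfsf11 and -0.0105 for Csf1. The cause was not tested beyond the composition given above. Of 518 levels of single classes, 86 moved. No paired analysis was possible because all cells came from 1 library. Classes under 50 cells, and Il34 everywhere, were limited by their UMIs.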

Other observations

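The 5476 barcodes with fewer than 1600 genes held 481 UMIs of Csf1 (27.9 CPM, 25.4 to 30.5) and 497 of Csf1r (28.8 CPM, 26.3 to 31.4), against 67 of Tnfsf11 (3.88 CPM) and 44 of Tnfrsf11b (2.55 CPM). The neutrophil class, at 4.81 CPM of Csf1 among the deeper cells, was at 40.5 CPM when cells of 500 or more genes were kept. In the 162 cells of osteogenic sub-clusters led by markers of another cell type, summed, Csf1 was at 78.0 CPM and Tnfsf11 at 52.1 CPM. Their Csf1r was at 41.5 CPM (35.4 to 48.5), where the 1045 cells kept had 1.80 CPM. A Tnfsf11 UMI was in 74 of these 162 cells and a Csf1r UMI in 41, and 39.5% were called doublets. Whether the same cells held both was not tested.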
